A study of Mus musculus with 9 samples.

Results

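The data compare liver RNA of wild-type mice fed a high-fat diet (HFD) with that of wild-type mice fed a normal diet (ND), 3 libraries a group, 6 of the 9 libraries in the series. Members were taken by the labelled diet, and all genes in the count tables were used. The HFD was labelled as 60%, both diets were fed for 12 weeks from 8 weeks of age, and livers were taken from fed mice. The other 3 libraries came from mice on the same HFD with 0.25% hyodeoxycholic acid (HDCA). They entered only the low-count filter, the scaling of library sizes and the estimate of the spread. The labels give no sex, strain or cage, and do not say whether each library is 1 animal. The p-values therefore set each difference against the spread between libraries, which may not be that between animals.

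The liver stores surplus dietary fat as triglyceride, and also makes fat from sugar when insulin is high. It clears drugs and steroids with cytochrome P450 enzymes (Cyp genes), carboxylesterases (Ces) and conjugating transferases (Ugt, Sult, Gst). In rodents many of these genes differ between males and females, because growth hormone is released in pulses in males and more steadily in females. Obesity is known to blunt growth hormone release.

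Reads on genes numbered 16994353 to 20509203 per library. A count of 0 allowed a level of up to 0.152 to 0.174 CPM (3 counts, counting error only), where CPM is a read count divided by the scaled library size. Clock genes varied within both groups. Dbp, a clock output gene, stood at 14.6, 3.58 and 0.752 CPM in ND 1 to ND 3 and at 85.8, 2.27 and 1.41 in HFD 1 to HFD 3. Arntl, a core clock gene of opposite phase, was at 17.3, 26.2 and 42.9 CPM in ND and 4.71, 41.1 and 37.6 in HFD, so that HFD 1 and, less far, ND 1 stood to the same side. Among hepatocyte markers 13 of 14 exceeded 1 CPM in at least 1 library, and Alb, encoding albumin, was at 67114, 67677 and 59441 CPM in ND and 75902, 92031 and 96557 in HFD. The exception was Ass1, a urea cycle enzyme, at 0.152 to 0.759 CPM. In the deposited FPKM tables (fragment counts scaled by transcript length and library size) the same gene averaged 161 in ND and 138 in HFD, so its count is no measure of its level. Reads that aligned to several places made up 16.6 to 19.4% of the ND files and 13.3 to 14% of the HFD files. For families of near-identical genes (Mup, Cyp2b, Cyp3a, Cyp4a, Ugt1a, Serpina1) the level of a single member is therefore uncertain, and the part of this difference in their results was not tested.

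Of 12587 genes tested, 120 (0.953%) were called changed at an adjusted p under 0.05 (edgeR quasi-likelihood test, Benjamini-Hochberg adjustment), 60 higher (0.477%) and 60 lower (0.477%) in HFD. The median fold was 2.66 among the genes that rose and 2.98 among those that fell. Folds under 2 were found for 39 of the 120, 18 higher and 21 lower, and the smallest were 1.48 and 1.49. Abundant genes, at 100 CPM or more in the higher group, were 10 of those that rose and 22 of those that fell. The 60 genes that fell took 2.31 to 2.87% of reads on genes in the ND libraries and 0.543 to 0.683% in the HFD libraries. The 60 that rose took 0.164 to 0.182% in ND and 0.357 to 0.420% in HFD. The median of all genes tested was 0.02 on the log2 scale (HFD minus ND), and 53.3% lay above 0.

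**Figure D1:**
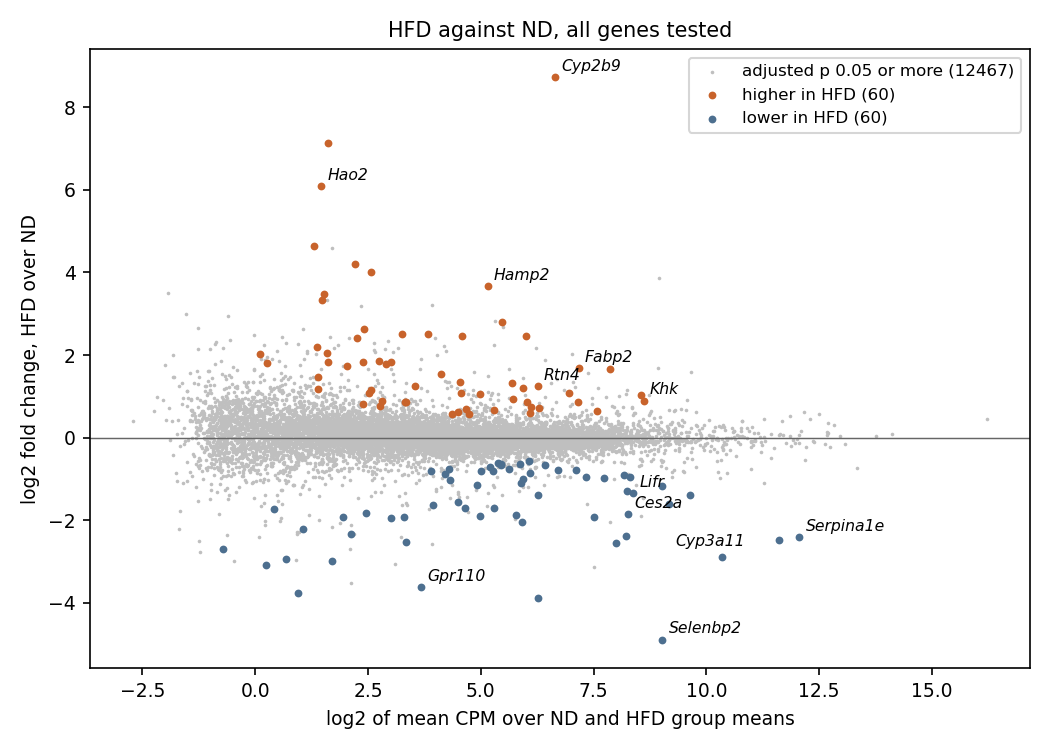
Each point is 1 of the 12587 genes tested, with the log2 of its mean level (CPM) on the x axis and its log2 fold change, HFD over ND, on the y axis. The 60 genes that rose (orange) and the 60 that fell (blue) span low and high levels; Cyp3a11 and Serpina1e are at the far right below 0, and Khk and Fabp2 are among the abundant genes above 0.

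The count of called genes depended on single libraries. Omitting ND 1 left 36 calls, ND 2 left 44, ND 3 left 32, HFD 2 left 40 and HFD 3 left 34. The count was 226 without HFD 1 and 208 without HFD_HDCA 1. In the fits without 1 library, 22 of the 120 genes were called in all 9, and 51 in at least 5. For each called gene named below that lost its call in some of these fits, the libraries concerned are given with the highest adjusted p. All 120 called genes kept their direction in every fit. DESeq2, a second count test, called all 120, limma on the FPKM values called 96 of them, and edgeR on the 6 ND and HFD libraries alone kept 93. Among all genes each tested, DESeq2 called 1.07% higher and 1.06% lower, and limma 0.678% higher and 0.41% lower. In edgeR 6.67% of all genes lay higher and 4.83% lower with an unadjusted p under 0.05, the shares to set beside the counts of each gene list. The groups did not overlap for any of the 120, against 20.1% of all genes tested (10.9% with HFD above ND and 9.2% below).

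The 22 genes called in all 9 fits were 10 that rose and 12 that fell. The more abundant of the 10 that rose come first. Rtn4, encoding the membrane-shaping protein Nogo (chromosome 11, 29692898 to 29744414, mm10), stood at 48.8, 49.3 and 38.2 CPM in ND 1 to ND 3 and at 105, 106 and 114 CPM in HFD 1 to HFD 3. The 3 HFD libraries were nearly equal and all were above the ND libraries, a log2 change of 1.25 ± 0.15 (SE, adjusted p = 0.00460). Slc17a4, a phosphate and organic anion transporter gene, was at 32.1, 32.3 and 24 CPM in ND and 60.02, 79 and 81.8 in HFD, a rise of 1.32 ± 0.15 (SE, adjusted p = 0.00437). Samd9l, an interferon-inducible gene, was at 14.8, 14 and 10.4 CPM in ND and 32.1, 35 and 33.3 in HFD, and rose by 1.35 ± 0.15 (SE, adjusted p = 0.00403). In both genes the lowest HFD library stood clear of the highest ND library. Extl1, a heparan sulfate glycosyltransferase gene, rose from 4.89, 2.66 and 2.95 CPM to 12.2, 12 and 13.4 CPM (log2 change 1.84 ± 0.24, SE, adjusted p = 0.00734), with ND 1 the highest of the ND libraries.

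Another 3 of the 10 were low in ND. Wfdc2, a secreted whey acidic protein family member, was at 3.43, 2.71 and 3.93 CPM in ND and 9.86, 12.5 and 12.1 in HFD (adjusted p = 0.00734). Gpr98 (now Adgrv1), a very large adhesion receptor, was at 1.3, 1.73 and 1.45 CPM in ND and 6.55, 11.4 and 9.69 in HFD (adjusted p = 0.00437). Stap1, an adaptor protein known from B cells, was at 0.208, 0.108 and 0.231 CPM in ND and 2, 5.71 and 6.46 in HFD, with HFD 1 the lowest of the HFD libraries (adjusted p = 0.00403). The ratio of summed counts for Stap1 was 26.2 (95% counting interval 14 to 55.3, 10 reads in ND). The last 3, Cyp2b9, Cyp2b13 and Hao2, are described with the sex-biased genes.

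Gpr110 (now Adgrf1), an adhesion receptor gene (chromosome 17, 43270347 to 43324406, mm10), had the smallest p of all genes. It stood at 23.5, 21.8 and 25.4 CPM in ND and 2.92, 1.52 and 1.3 in HFD, and fell by 3.62 ± 0.29 as log2 (SE, adjusted p = 0.00165). The 3 ND libraries were close together and each HFD library was far below them. Lifr, the receptor subunit for leukemia inhibitory factor (chromosome 15, 7129572 to 7197489, mm10), was at 416, 483 and 535 CPM in ND and 194, 190.1 and 182 in HFD (log2 change -1.34 ± 0.14, SE, adjusted p = 0.00354). Slco2a1, the prostaglandin transporter gene, was at 105, 118 and 112 CPM in ND and 41.5, 37.7 and 48.4 in HFD (log2 change -1.39 ± 0.15, SE, adjusted p = 0.00403). For both, the HFD libraries varied less than the distance to the lowest ND library. Ip6k2, an inositol hexakisphosphate kinase gene, was at 52.9, 65.7 and 60.7 CPM in ND and 22.9, 15 and 17.2 in HFD, and fell by 1.70 ± 0.17 (SE, adjusted p = 0.00314). Lrrc16a (now Carmil1), an actin capping protein regulator, fell by 1.15 ± 0.13, and Cadm4, a cell adhesion molecule, fell by 1.82 ± 0.25 (SE, adjusted p = 0.00437 and 0.0106). Tuba8, an alpha tubulin gene, was at 2.08, 2.71 and 1.5 CPM in ND and 0.217, 0.202 and 0.313 in HFD (adjusted p = 0.00695). The remaining 5 that fell, Ces2a, Ces3b, Ugt2b1, Hsd3b5 and Mup13, belong to groups described below.

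**Figure D2:**
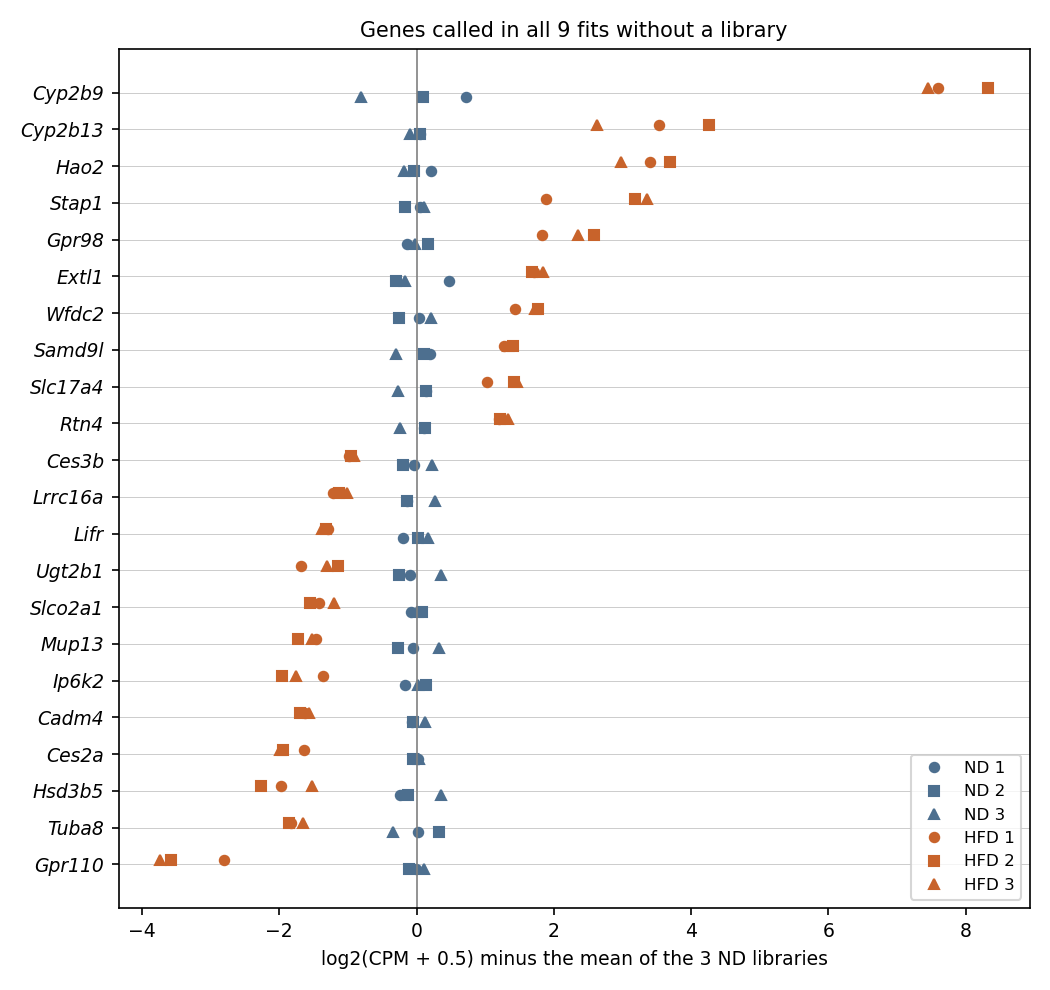
The 22 genes called in all 9 fits without 1 library are in rows, and the x axis is log2(CPM + 0.5) minus the mean of the 3 ND libraries. Blue marks are ND and orange marks HFD libraries, with 1 shape per replicate number; in no row do the colours overlap, and the genes run from Gpr110 at the bottom to Cyp2b9 at the top.

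Moderate changes made up part of the response. Among genes with folds under 2 that rose, Vnn3, a vanin family pantetheinase gene, was at 48, 49.5 and 40.8 CPM in ND and 74.3, 88.7 and 89.4 in HFD (log2 change 0.87 ± 0.12, SE, adjusted p = 0.0129). Hgfac, the protease that activates hepatocyte growth factor, was at 145, 148 and 151 CPM in ND and 239, 223 and 233 in HFD (log2 change 0.65 ± 0.10, SE, adjusted p = 0.0222). The spread within each group of Hgfac was small beside the gap between them. Cyp39a1, an oxysterol hydroxylase, was at 19.8, 19.6 and 19.4 CPM in ND and 33.6, 28.7 and 32.5 in HFD (adjusted p = 0.0198), and Slc16a7, a monocarboxylate transporter, was at 39.6, 38.2 and 30.3 CPM in ND and 64.9, 79.1 and 62.1 in HFD (adjusted p = 0.0235). Among those that fell, Ankrd33b fell by 0.80 ± 0.12 and Dmxl2, a regulator of the vacuolar proton pump, fell by 0.65 ± 0.10 (SE, adjusted p = 0.0164 and 0.0185, and 0.0958 for Dmxl2 in the FPKM tables with limma). Id2, an inhibitor of helix-loop-helix transcription factors, is given here as a gene abundant in HFD, and its fold was not under 2. It was at 77.3, 74.4 and 87.6 CPM in ND and 147, 195 and 162 in HFD (adjusted p = 0.0232). The call of Ankrd33b ended without ND 1, ND 2, HFD 2 or HFD 3 (5 of 9 kept, adjusted p up to 0.0733 without ND 2). The call of Cyp39a1 ended without ND 1, ND 2, ND 3 or HFD 3 (5 of 9 kept, adjusted p up to 0.0957 without ND 3). The call of Vnn3 ended without ND 1, ND 3, HFD 2 or HFD 3 (5 of 9 kept, adjusted p up to 0.0677 without ND 3). The calls of Hgfac, Slc16a7, Dmxl2 and Id2 ended without ND 1, ND 2, ND 3, HFD 2 or HFD 3 (4 of 9 kept, adjusted p up to 0.0977 without ND 1, 0.113 without ND 3, 0.0751 without ND 2 and 0.108 without ND 2).

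Genes of fructose use and glycolysis were among those that rose. Of the 22 tested, 3 rose and 0 fell in edgeR (unadjusted p under 0.05 in 9 higher and 0 lower genes, DESeq2 calls 6 and 0, limma calls on FPKM 4 and 0), with a median log2 change of 0.32 against 0.02 over all genes. Khk, encoding ketohexokinase, which phosphorylates fructose (chromosome 5, 30921895 to 30931246, mm10), was at 288, 265 and 267 CPM in ND and 448, 527 and 549 in HFD (log2 change 0.89 ± 0.17, SE, adjusted p = 0.0325). Dak (now Tkfc), a triose kinase that acts after Khk, was at 277, 234 and 229.7 CPM in ND and 340.4, 625 and 559 in HFD (log2 change 1.04 ± 0.21, SE, adjusted p = 0.0461). Pklr, liver pyruvate kinase, was at 121, 101 and 113 CPM in ND and 209, 355 and 496 in HFD (log2 change 1.66 ± 0.26, SE, adjusted p = 0.0231). HFD 1 was the lowest HFD library in each of these, and still above every ND library. Ldha and Slc2a2, for lactate dehydrogenase A and the GLUT2 glucose transporter, had log2 changes of 0.63 ± 0.15 and 0.59 ± 0.17 (SE, adjusted p = 0.0908 and 0.180). Among fructose and glycolysis genes, with 1 library left out, the number that rose was 0 without ND 1, ND 2, ND 3 and HFD 2, 1 without HFD 3, HFD_HDCA 2 and HFD_HDCA 3 and 6 without HFD 1. The call of Pklr ended without ND 1, ND 2, ND 3, HFD 2 or HFD_HDCA 2 (4 of 9 kept, adjusted p up to 0.104 without ND 3). The call of Khk ended without ND 1, ND 2, ND 3, HFD 2, HFD 3 or HFD_HDCA 3 (3 of 9 kept, adjusted p up to 0.163 without ND 3). The call of Dak ended without ND 1, ND 2, ND 3, HFD 2, HFD 3, HFD_HDCA 2 or HFD_HDCA 3 (2 of 9 kept, adjusted p up to 0.205 without ND 3). Dak and Pklr also lost their calls in the fit to the 6 ND and HFD libraries alone (adjusted p = 0.0937 and 0.0695).

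Enzymes of glycogen metabolism were among them too. Of the 15 tested, 2 rose and 0 fell in edgeR (unadjusted p under 0.05 in 5 higher and 0 lower genes, DESeq2 calls 2 and 0, limma calls on FPKM 2 and 0), with a median of 0.38. Gbe1, the glycogen branching enzyme, was at 106, 101 and 95.7 CPM in ND and 149.99, 206 and 199 in HFD (log2 change 0.88 ± 0.13, SE, adjusted p = 0.0164). Gbe1 stood higher in all 3 HFD libraries. Gys2, liver glycogen synthase, was at 135, 121 and 105 CPM in ND and 196, 178 and 139 in HFD (adjusted p = 0.180). Among glycogen genes, with 1 library left out, the number that rose was 0 without ND 1, ND 2, ND 3, HFD 2 and HFD 3 and 1 without HFD_HDCA 2 and HFD_HDCA 3. The call of Gbe1 ended without ND 1, ND 2, ND 3, HFD 2 or HFD 3 (4 of 9 kept, adjusted p up to 0.0909 without ND 3).

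**Figure D3:**
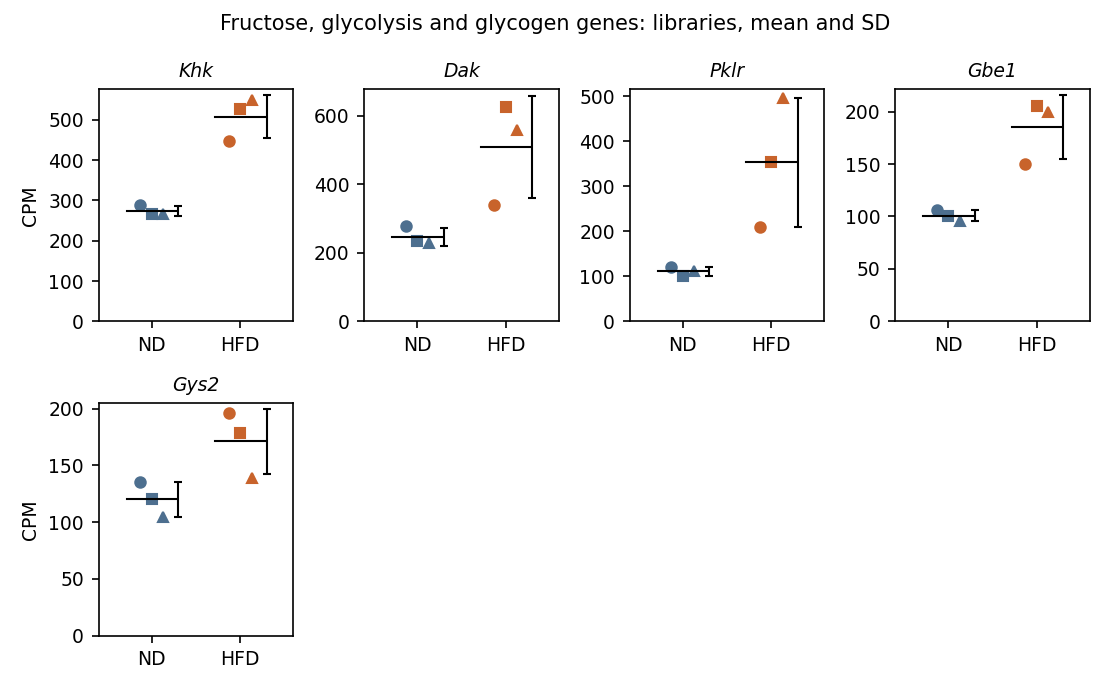
Levels in CPM of 5 genes of fructose use, glycolysis and glycogen in the ND (blue) and HFD (orange) libraries, with the group mean (line) and SD (bar, n = 3). Khk, Dak, Pklr and Gbe1 rose; the groups of Gys2 did not overlap but its adjusted p was 0.180.

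Fat synthesis genes varied between the HFD libraries. Of the 17 tested, 1 rose and 0 fell in edgeR (unadjusted p under 0.05 in 5 higher and 0 lower genes, DESeq2 calls 2 and 0, limma calls on FPKM 1 and 0), with a median of 0.49. The median over these genes relative to the ND mean was -0.21 in HFD 1, 0.23 in HFD 2 and 1.12 in HFD 3. Mid1ip1, which promotes assembly of acetyl-CoA carboxylase, was at 42.6, 30.4 and 38.6 CPM in ND and 88.9, 77.2 and 90.4 in HFD, and was the member that rose (log2 change 1.20 ± 0.19, SE, adjusted p = 0.0189). It did not follow the order of the list, since HFD 1 and HFD 3 were equally high. Srebf1, encoding the insulin-responsive lipogenic factor SREBP1, was at 209, 153 and 216 CPM in ND and 471, 369.6 and 361 in HFD (adjusted p = 0.101). Fasn, fatty acid synthase, was at 247, 205 and 241 CPM in ND and 329, 527 and 1386 in HFD, highest in HFD 3 (adjusted p = 0.180). Pnpla3 was at 0.364, 0.0542 and 0.347 CPM in ND and 0.758, 0.808 and 17.2 in HFD, so that its level rested on HFD 3. Among fatty acid synthesis genes, with 1 library left out, the number that rose was 0 without ND 1, ND 2, ND 3 and HFD 3, 2 without HFD_HDCA 3 and 4 without HFD 1. The call of Mid1ip1 ended without ND 1, ND 2, ND 3 or HFD 3 (5 of 9 kept, adjusted p up to 0.0833 without ND 3).

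Desaturases and cholesterol synthesis genes had the same order of HFD libraries. The median over 13 desaturases and elongases was -0.30, 0.19 and 1.05 in HFD 1, HFD 2 and HFD 3, and that over 22 cholesterol genes -0.80, -0.27 and 0.69. Among the desaturases and elongases, edgeR called 0 (unadjusted p under 0.05 in 4 higher and 1 lower genes), DESeq2 2 higher and 0 lower, and limma on FPKM 0 and 0. Among the cholesterol genes, edgeR called 0 (unadjusted p under 0.05 in 0 higher and 1 lower genes), DESeq2 0 higher and 0 lower, and limma on FPKM 0 and 0. Elovl5, a fatty acid elongase, was at 342, 507 and 352 CPM in ND and 448, 1331 and 1840.5 in HFD, where HFD 1 lay within the ND range (adjusted p = 0.180). Fads2, the delta-6 desaturase, was at 253, 321 and 258 CPM in ND and 317, 581 and 804 in HFD (adjusted p = 0.160). Without HFD 1, 3 of the desaturases and elongases were called higher.

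Genes of lipid uptake and storage showed few calls. Of 24 genes of fatty acid uptake and binding, 2 rose and 0 fell in edgeR (unadjusted p under 0.05 in 6 higher and 2 lower genes, DESeq2 calls 4 and 1, limma calls on FPKM 2 and 0). Fabp2, the intestinal fatty acid binding protein, was at 60.4, 75.8 and 69.8 CPM in ND and 179, 262 and 218 in HFD (log2 change 1.68 ± 0.23, SE, adjusted p = 0.0106). Gm6484 (now Angptl8), a secreted inhibitor of lipoprotein lipase that is induced by feeding, was at 17.3, 13.2 and 28.7 CPM in ND and 91.5, 159 and 75.3 in HFD (log2 change 2.47 ± 0.37, SE, adjusted p = 0.0232). Both were higher in every HFD library. Its relative Angptl4, which rises in fasting, lay the other way, at 229, 313 and 199 CPM in ND and 97.2, 91.7 and 54.1 in HFD (adjusted p = 0.0592). Cd36, a fatty acid translocase, was at 84.5, 81.7 and 56.2 CPM in ND and 160.4, 212 and 191 in HFD (adjusted p = 0.200). Among fatty acid uptake and binding genes, with 1 library left out, the number that rose was 0 without ND 1 and 1 without ND 2 and ND 3. The call of Gm6484 ended without ND 1 or ND 2 (7 of 9 kept, adjusted p up to 0.101 without ND 1). The call of Fabp2 ended without ND 1 or ND 3 (7 of 9 kept, adjusted p up to 0.0630 without ND 3). Gm6484 also lost its call in the fit to the 6 ND and HFD libraries alone (adjusted p = 0.0569).

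Among 18 genes of lipid droplets and lipolysis, edgeR called 0 (unadjusted p under 0.05 in 5 higher and 2 lower genes), DESeq2 1 higher and 0 lower, and limma on FPKM 0 and 0. Among 17 genes of triglyceride synthesis and secretion, edgeR called 0 (unadjusted p under 0.05 in 5 higher and 3 lower genes), DESeq2 1 higher and 0 lower, and limma on FPKM 0 and 0. G0s2, an inhibitor of adipose triglyceride lipase, was at 31.5, 63.5 and 57.3 CPM in ND and 109, 373 and 140.02 in HFD (adjusted p = 0.241). Hsd17b13, a lipid droplet protein, was at 366, 344 and 357 CPM in ND and 464, 453 and 481 in HFD, and Mogat1, a monoacylglycerol acyltransferase, at 0.677, 1.14 and 0.752 CPM in ND and 1.52, 5.76 and 3.44 in HFD (adjusted p = 0.143 and 0.143). The groups did not overlap for these 3 genes, yet none passed the adjusted threshold. Without overlap, 5 of the 18 lipid droplet genes lay higher and 1 lower, and 7 and 3 of the 17 triglyceride genes. The shares of all genes tested were 10.9% higher and 9.2% lower. The 3 triglyceride genes that lay lower were Lpin1, Lpin2 and Agpat6, with log2 changes of -0.91, -0.89 and -0.35, none of them called. Among 15 apolipoprotein genes, edgeR called 0 (unadjusted p under 0.05 in 3 higher and 1 lower genes), DESeq2 2 higher and 0 lower, and limma on FPKM 1 and 0. Apoa4 was at 66.8, 56 and 69.2 CPM in ND and 229, 864 and 1693 in HFD, with a wide spread among the HFD libraries (adjusted p = 0.0662).

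Among 23 genes of mitochondrial oxidation and ketogenesis, edgeR called 0 (unadjusted p under 0.05 in 6 higher and 0 lower genes), DESeq2 2 higher and 0 lower, and limma on FPKM 1 and 0. Of these 21 lay above 0, against 53.3% of all genes tested, with a median of 0.24 on the log2 scale. Relative to the ND mean the list stood at 0.15 in HFD 1, 0.47 in HFD 2 and 0.09 in HFD 3. The last was within the ND range, since ND 2 stood at 0.12. Hadh, a beta-oxidation dehydrogenase, was at 348, 356 and 318 CPM in ND and 506, 595 and 449 in HFD (adjusted p = 0.0715), and Bdh1, which makes the ketone body beta-hydroxybutyrate, at 254, 274 and 204 CPM in ND and 347, 497 and 376 in HFD (adjusted p = 0.0860). In both, every HFD library exceeded every ND library without passing the adjusted threshold. Of 25 genes of peroxisomal and omega oxidation, 2 rose and 1 fell in edgeR (unadjusted p under 0.05 in 6 higher and 3 lower genes, DESeq2 calls 4 and 3, limma calls on FPKM 2 and 1). Hao2, a peroxisomal hydroxyacid oxidase, was among the members that rose, and Cyp4a12b, an omega hydroxylase typical of male liver, the member that fell. Acot3, a peroxisomal thioesterase, was at 3.38, 9.21 and 2.37 CPM in ND and 25.8, 30.9 and 22.9 in HFD (adjusted p = 0.0702). Among peroxisomal oxidation and omega oxidation genes, with 1 library left out, the number that rose was 1 without ND 1, ND 3, HFD 2, HFD 3, HFD_HDCA 2 and HFD_HDCA 3, and the number that fell was 0 without ND 1, ND 2, ND 3, HFD 2, HFD 3 and HFD_HDCA 2 and 2 without HFD_HDCA 3. The call of Cyp4a12b ended without ND 1, ND 2, ND 3, HFD 2, HFD 3 or HFD_HDCA 2 (3 of 9 kept, adjusted p up to 0.113 without HFD 2).

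Among the lists, which were chosen with earlier results of these data known, genes typical of male liver had the most calls. Of 25 listed, 24 were tested and 0 rose and 10 fell in edgeR (unadjusted p under 0.05 in 0 higher and 18 lower genes, DESeq2 calls 0 and 15, limma calls on FPKM 0 and 11), with a median of -1.52 on the log2 scale. Hsd3b5, a steroid dehydrogenase, was at 240.1, 259 and 364 CPM in ND and 71.6, 58.3 and 98 in HFD (log2 change -1.92 ± 0.22, SE, adjusted p = 0.00447). Keg1, a glycine acyltransferase-like gene, was at 243, 271 and 335 CPM in ND and 129, 173 and 129 in HFD (adjusted p = 0.0198). Susd4, a complement inhibitor gene, was at 33, 36.4 and 45.4 CPM in ND and 9.59, 13.7 and 11.8 in HFD (adjusted p = 0.0291). In each the ND libraries were all higher, and ND 3 was the highest of them. Serpina1e, an alpha-1 antitrypsin gene, was at 5647, 7604 and 8288 CPM in ND and 839, 1547 and 1668 in HFD (adjusted p = 0.0406), and Selenbp2 at 731, 607 and 1685 CPM in ND and 14.1, 49.1 and 38.7 in HFD (adjusted p = 0.0406), with ND 3 the highest. Cyp4a12b was at 186, 107 and 143 CPM in ND and 3.47, 11.8 and 14.1 in HFD, and its near copy Cyp4a12a at 409, 342 and 377 CPM in ND and 60.2, 119 and 97.1 in HFD (adjusted p = 0.0259 and 0.0815). Among male-biased liver genes, with 1 library left out, the number that fell was 2 without HFD 3, 3 without ND 3, 4 without ND 1, ND 2 and HFD 2 and 6 without HFD 1. The call of Keg1 ended without ND 2, ND 3 or HFD 3 (6 of 9 kept, adjusted p up to 0.0833 without ND 3). The call of Susd4 ended without ND 1, ND 2, ND 3, HFD 1, HFD 2 or HFD 3 (3 of 9 kept, adjusted p up to 0.126 without ND 3). The call of Cyp4a12b ended without ND 1, ND 2, ND 3, HFD 2, HFD 3 or HFD_HDCA 2 (3 of 9 kept, adjusted p up to 0.113 without HFD 2). The calls of Serpina1e and Selenbp2 ended without ND 1, ND 2, ND 3, HFD 1, HFD 2, HFD 3 or HFD_HDCA 2 (2 of 9 kept, adjusted p up to 0.156 without ND 3 and 0.153 without HFD 2).

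Genes typical of female liver split. Of 26 listed, 18 passed the low-count filter and 5 rose and 1 fell in edgeR (unadjusted p under 0.05 in 10 higher and 5 lower genes, DESeq2 calls 7 and 4, limma calls on FPKM 4 and 2). Because some passed the filter only through the group where they were high, these counts describe the genes tested and not the list. Cyp2b9, a steroid and drug hydroxylase (chromosome 7, 26173409 to 26210660, mm10), was at 0.937, 0.434 and 0 CPM in ND and 169, 281 and 153 in HFD, a ratio of summed counts of 428 (95% counting interval 292 to 655). Its neighbour Cyp2b13 had 2 reads in ND and was at 5.69, 9.75 and 2.81 CPM in HFD, a ratio of 168 (46.3 to 1395). Hao2 (chromosome 3, 98874519 to 98893230, mm10) was at 0.156, 0.0542 and 0 CPM in ND and 5.47, 6.82 and 3.96 in HFD, a ratio of 74.6 (28.8 to 275.5) that rests on 4 reads in ND. All 3 HFD libraries expressed these genes, which were near the floor in ND (adjusted p = 0.00314, 0.00672 and 0.00354). Cyp17a1, a steroid 17-hydroxylase, was at 3.59, 4.72 and 4.51 CPM in ND and 21.1, 15.1 and 36.4 in HFD, and Slc22a27, an organic anion transporter gene, at 0.260, 0.921 and 0.231 CPM in ND and 7.75, 11 and 7.76 in HFD (adjusted p = 0.0118 and 0.0236, and 0.0540 for Slc22a27 in the FPKM tables with limma). Cyp3a44, also female-biased, moved the other way, from 20.3, 16.7 and 14.5 CPM in ND to 2.71, 2.42 and 3.75 in HFD (log2 change -2.54 ± 0.44, SE, adjusted p = 0.0322). Its relative Cyp3a16 was at 2.91, 2.11 and 1.97 CPM in ND and 0.596, 0.455 and 0.677 in HFD, and Cyp2c40 at 4.01, 21.2 and 20.8 CPM in ND and 0.975, 2.27 and 2.24 in HFD (adjusted p = 0.0662 and 0.0828). Among female-biased liver genes, with 1 library left out, the number that rose was 3 without ND 1 and ND 3, and the number that fell was 0 without ND 2, ND 3, HFD 1, HFD 2 and HFD 3 and 2 without ND 1 and HFD_HDCA 1. The call of Cyp17a1 ended without ND 1 or ND 3 (7 of 9 kept, adjusted p up to 0.0658 without ND 3). The call of Slc22a27 ended without ND 1, ND 3, HFD 2 or HFD 3 (5 of 9 kept, adjusted p up to 0.126 without ND 3). The call of Cyp3a44 ended without ND 1, ND 2, ND 3, HFD 1, HFD 2 or HFD 3 (3 of 9 kept, adjusted p up to 0.136 without HFD 2).

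In the growth hormone and IGF1 axis 0 rose and 1 fell in edgeR (unadjusted p under 0.05 in 1 higher and 4 lower genes, DESeq2 calls 0 and 3, limma calls on FPKM 0 and 2) of 23 tested, the member that fell being Lifr. Igfbp2, an IGF binding protein, was at 519, 489 and 419 CPM in ND and 324, 162 and 159 in HFD (adjusted p = 0.0782). Egfr, the epidermal growth factor receptor, was at 582, 389 and 730.3 CPM in ND and 133, 305 and 179 in HFD (adjusted p = 0.101). Stat5b, which carries the growth hormone signal to the nucleus, was at 84.5, 84.1 and 91.5 CPM in ND and 74.3, 65.9 and 71.4 in HFD (adjusted p = 0.253). For these 3 genes every HFD library was below every ND library, without passing the adjusted threshold. Prlr was the 1 gene that lay higher with an unadjusted p under 0.05, and its groups overlapped. Of the 23 genes, 4 lay lower and 0 higher without overlap, against 9.2% and 10.9% of all genes tested.

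Major urinary protein genes, which encode pheromone carriers made under growth hormone and androgen control, were lower in HFD. Of 16 tested, 0 rose and 5 fell in edgeR (unadjusted p under 0.05 in 0 higher and 13 lower genes, DESeq2 calls 0 and 10, limma calls on FPKM 0 and 9), all 16 lay below 0 and the median was -1.56. Together 20 Mup genes took 1.67 to 2.32% of reads on genes in ND and 1.17 to 1.53% in HFD. Mup13 was at 821, 709.9 and 1069.6 CPM in ND and 308, 258 and 296 in HFD (log2 change -1.59 ± 0.20, SE, adjusted p = 0.00719). Mup7, also among the male-biased genes that fell, was at 1636, 1457 and 3805 CPM in ND and 171, 342 and 425 in HFD (adjusted p = 0.0411). ND 3 was the highest library and HFD 1 the lowest. Mup12 was at 80.6, 59.3 and 150.3 CPM in ND and 20.7, 29.2 and 20.7 in HFD (adjusted p = 0.0252), while Mup10 and Mup11 stayed under 5 CPM in every library (adjusted p = 0.0232 and 0.0252). The FPKM tables gave adjusted p of 0.00709 to 0.0134 for these 5 genes in limma. Among major urinary proteins, with 1 library left out, the number that fell was 1 without ND 1 and HFD 2, 2 without ND 3 and HFD 3 and 3 without ND 2 and HFD 1. The call of Mup12 ended without ND 1, HFD 1, HFD 2 or HFD 3 (5 of 9 kept, adjusted p up to 0.0991 without HFD 3). The call of Mup11 ended without ND 1, ND 2, ND 3 or HFD 2 (5 of 9 kept, adjusted p up to 0.117 without ND 3). The call of Mup10 ended without ND 1, ND 2, ND 3, HFD 2 or HFD 3 (4 of 9 kept, adjusted p up to 0.0957 without ND 3). The call of Mup7 ended without ND 1, ND 2, ND 3, HFD 1, HFD 2, HFD 3 or HFD_HDCA 2 (2 of 9 kept, adjusted p up to 0.167 without HFD 2). Mup7, Mup11 and Mup12 also lost their calls in the fit to the 6 ND and HFD libraries alone (adjusted p = 0.0773, 0.0537 and 0.0811).

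Of the 5 called Mup genes, Mup7, Mup10 and Mup11 had a promoter window in the RefSeq table. These share a stretch shown because the genes fell together and the stretch holds a match to the pattern searched for a D-box. The D-box is the element read by clock output factors of the Dbp family. It was searched in a loose form, TTATGNAA, where N is any base, and the Mup matches have A at N. Whether such factors read this form was not tested. Both sequences are 38 bases from RefSeq on GRCm38.p6, minus strand, 5′ to 3′, with the match in capitals.
Mup7, chr4:60070522-60070559: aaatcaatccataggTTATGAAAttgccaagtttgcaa
Mup10, chr4:60582337-60582374: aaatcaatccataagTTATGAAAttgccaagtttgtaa
The stretch of Mup11 (chr4:60662548-60662585) was identical to that of Mup7, and that of Mup10 differed at 2 positions. The start sites are those of the RefSeq table. The match began 69 bases before that site in Mup7, 175 in Mup11 and 204 in Mup10. The windows of these genes therefore did not cover the same part of the shared sequence. A search for 4 motifs, chosen after the calls were known, covered both strands of the 250 bases before the start. The loose D-box pattern was found in 5 of 51 windows of genes that fell and in 4 of 56 of genes that rose. It was found in 2.06% of windows of all genes tested, and 3 of the 5 belonged to Mup genes, which share their sequence. The STAT motif TTCNNNGAA was in 1.96% of windows of genes that fell, 7.14% of those that rose and 6.12% of those of all genes tested. The E-box CACGTG was in 1.96, 8.93 and 8.21% in the same order. The DR1 element bound by PPAR factors, searched as a direct repeat, was in 0.0389% of the windows of all genes tested and in 0 of the windows of called genes. A match describes the letters and is not a tested site. Promoter windows were matched for 45 of the genes that rose and 45 of those that fell.

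Genes of drug metabolism were called in both directions. The 101 Cyp genes took 3.10 to 3.37% of reads on genes in ND and 2.01 to 2.56% in HFD. Of 33 Cyp1 and Cyp2 genes tested, 3 rose and 2 fell in edgeR (unadjusted p under 0.05 in 6 higher and 13 lower genes, DESeq2 calls 4 and 8, limma calls on FPKM 2 and 2). Cyp1a2, which hydroxylates caffeine and is a pericentral gene (chromosome 9, 57676937 to 57683655, mm10), was at 722, 714 and 703 CPM in ND and 383, 304 and 262 in HFD (log2 change -1.17 ± 0.18, SE, adjusted p = 0.0164). Cyp2c54, an arachidonic acid epoxygenase, was at 373, 361 and 396 CPM in ND and 195, 243 and 163 in HFD (adjusted p = 0.0231). The rises were those of Cyp2b9, Cyp2b13 and Cyp2a22, the last at 2.24, 1.3 and 0.983 CPM in ND and 6.72, 11.6 and 5.78 in HFD (adjusted p = 0.0236, but 0.668 in the FPKM tables with limma). Cyp2c29, one of the most abundant members, was at 1811, 1892 and 1749 CPM in ND and 910.3, 1252 and 853 in HFD, and Cyp2f2, a periportal member, at 1881, 1325 and 1792 CPM in ND and 838, 863 and 836 in HFD (adjusted p = 0.0588 and 0.0592). Among Cyp1 and Cyp2 genes, with 1 library left out, the number that fell was 0 without ND 2, ND 3 and HFD 3 and 6 without HFD_HDCA 1. The call of Cyp2a22 ended without ND 2, ND 3 or HFD 2 (6 of 9 kept, adjusted p up to 0.115 without ND 2). The call of Cyp2c54 ended without ND 1, ND 2, ND 3 or HFD 3 (5 of 9 kept, adjusted p up to 0.0999 without ND 3). The call of Cyp1a2 ended without ND 1, ND 2, ND 3, HFD 2 or HFD 3 (4 of 9 kept, adjusted p up to 0.0667 without ND 3).

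Of 14 Cyp3a genes and their regulators, 0 rose and 2 fell in edgeR (unadjusted p under 0.05 in 1 higher and 7 lower genes, DESeq2 calls 0 and 4, limma calls on FPKM 0 and 3). Cyp3a11, the main drug-oxidizing cytochrome of mouse liver, was at 6390.2, 4962 and 4565 CPM in ND and 744, 932 and 1176 in HFD (log2 change -2.48 ± 0.38, SE, adjusted p = 0.0232). The lowest ND library was several times the highest HFD library. Cyp3a25 was at 974, 838 and 933 CPM in ND and 541, 572 and 457 in HFD (adjusted p = 0.121). The receptor gene Nr1i3 (CAR), which drives Cyp2b transcription, was at 131, 125 and 147 CPM in ND and 233, 212 and 133 in HFD, with overlapping groups (adjusted p = 0.318). Among Cyp3a genes and their regulators, with 1 library left out, the number that fell was 0 without ND 1, ND 2, ND 3, HFD 2 and HFD 3, 1 without HFD 1 and 5 without HFD_HDCA 1. The call of Cyp3a11 ended without ND 1, ND 2, ND 3, HFD 2 or HFD 3 (4 of 9 kept, adjusted p up to 0.0931 without HFD 2).

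Of 17 carboxylesterases, 0 rose and 2 fell in edgeR (unadjusted p under 0.05 in 2 higher and 5 lower genes, DESeq2 calls 1 and 5, limma calls on FPKM 0 and 1). Ces2a, which hydrolyses acylglycerols and prodrugs (chromosome 8, 104734003 to 104741634, mm10), was at 487, 462 and 491 CPM in ND and 154, 124 and 120.1 in HFD (log2 change -1.85 ± 0.18, SE, adjusted p = 0.00314). Ces3b, a lipid droplet esterase, was at 406, 361 and 486 CPM in ND and 210.2, 214 and 221 in HFD (log2 change -0.96 ± 0.13, SE, adjusted p = 0.0104), and missed the threshold when limma was run on FPKM (0.0837). Both calls held in all 9 fits without a library. Ces2e lay higher, at 237, 218 and 194 CPM in ND and 241, 378 and 337 in HFD (adjusted p = 0.175), and 2 carboxylesterases were called higher without HFD 1.

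Of 23 glucuronosyl and sulfotransferases, 0 rose and 3 fell in edgeR (unadjusted p under 0.05 in 1 higher and 8 lower genes, DESeq2 calls 0 and 6, limma calls on FPKM 0 and 3). Ugt2b1 was at 1059, 947 and 1441 CPM in ND and 352, 511 and 459 in HFD (log2 change -1.38 ± 0.18, SE, adjusted p = 0.00964). Ugt1a9 was at 56.6, 57.3 and 35.6 CPM in ND and 8.34, 13.7 and 18.2 in HFD (log2 change -1.89 ± 0.27, SE, adjusted p = 0.0164), and Sult5a1 at 20.1, 10.8 and 15.8 CPM in ND and 4.17, 4.6 and 3.65 in HFD (adjusted p = 0.0264). The 3 genes were lower in every HFD library, and Ugt2b1 and Sult5a1 also stand among the male-biased genes. Among 27 glutathione genes, edgeR called 0 (unadjusted p under 0.05 in 2 higher and 10 lower genes), DESeq2 0 higher and 6 lower, and limma on FPKM 0 and 0. Gstp1 was at 650.5, 500.1 and 614 CPM in ND and 175, 151 and 148 in HFD, and Gstm1 at 1782, 1670.2 and 1226 CPM in ND and 782, 1004 and 861 in HFD (adjusted p = 0.0588 and 0.0717). Among glucuronosyl and sulfotransferases, with 1 library left out, the number that fell was 1 without ND 1 and HFD 2 and 6 without HFD_HDCA 1. The call of Ugt1a9 ended without ND 1, ND 2 or HFD 2 (6 of 9 kept, adjusted p up to 0.0647 without HFD 2). The call of Sult5a1 ended without ND 1, ND 3, HFD 1, HFD 2 or HFD 3 (4 of 9 kept, adjusted p up to 0.109 without ND 3). Ugt1a9 also lost its call in the fit to the 6 ND and HFD libraries alone (adjusted p = 0.0592).

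**Figure D4:**
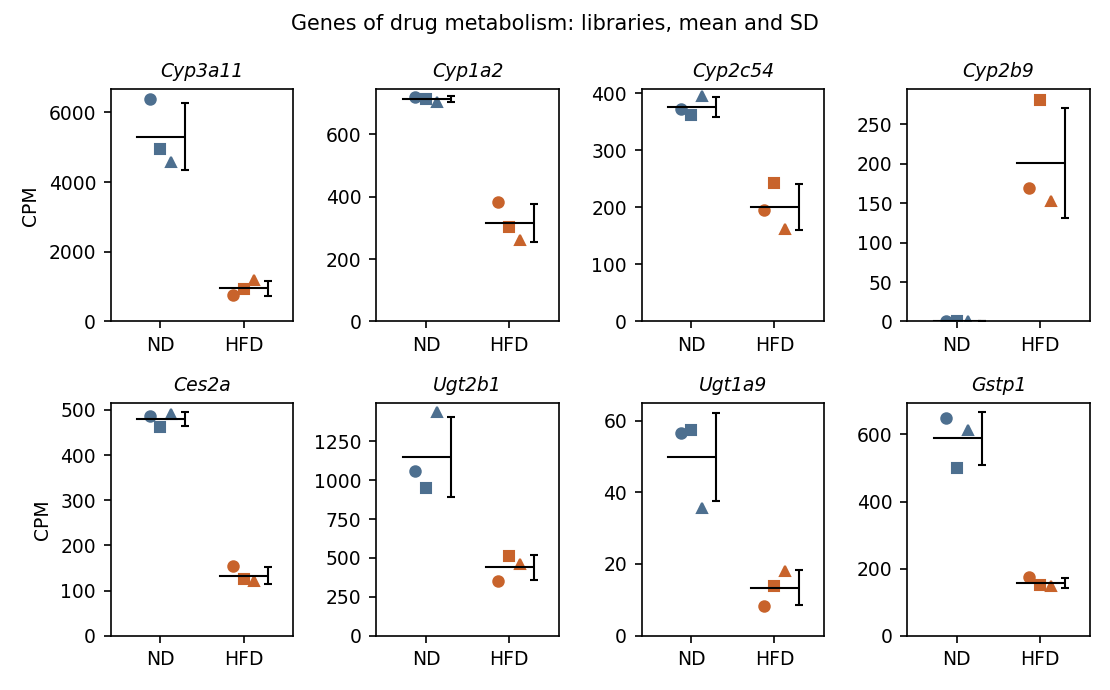
Levels in CPM of 8 genes of drug metabolism in the ND (blue) and HFD (orange) libraries, with the group mean (line) and SD (bar, n = 3). Cyp2b9 rose; Cyp3a11, Cyp1a2, Cyp2c54, Ces2a, Ugt2b1 and Ugt1a9 fell; Gstp1 had an adjusted p of 0.0588.

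Bile acid genes held 1 call. Of 27 tested, 0 rose and 1 fell in edgeR (unadjusted p under 0.05 in 3 higher and 6 lower genes, DESeq2 calls 0 and 3, limma calls on FPKM 0 and 1). Cyp7b1, the oxysterol hydroxylase of the alternative bile acid pathway, was at 404, 397 and 707 CPM in ND and 73.2, 126 and 90.8 in HFD (log2 change -2.38 ± 0.33, SE, adjusted p = 0.0162). ND 3 was the highest library, and the call was lost without HFD 3 (adjusted p = 0.0631). Cyp7b1 also stands among the male-biased genes that fell. Cyp27a1, which starts that pathway, was at 581, 630.01 and 668 CPM in ND and 376, 448 and 443 in HFD, and Cyp2c70, which makes muricholic acids, at 723, 594 and 1243 CPM in ND and 269, 294 and 279.6 in HFD (adjusted p = 0.0839 and 0.106). Csad, which makes the taurine used to conjugate bile acids, was at 279, 659 and 379 CPM in ND and 52.9, 86.6 and 87.3 in HFD (log2 change -2.54 ± 0.40, SE, adjusted p = 0.0252). It was the member called among 23 genes of methionine, one-carbon and taurine metabolism. The ND libraries of Csad were far apart, yet all were above HFD. The call of Csad ended without ND 2, ND 3, HFD 1, HFD 2 or HFD 3 (4 of 9 kept, adjusted p up to 0.0931 without HFD 2).

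Of 37 genes of amino acid catabolism, 0 rose and 2 fell in edgeR (unadjusted p under 0.05 in 2 higher and 7 lower genes, DESeq2 calls 0 and 2, limma calls on FPKM 0 and 2). Acmsd, which diverts tryptophan carbon away from NAD synthesis, was at 30.6, 26.2 and 44.9 CPM in ND and 12.7, 11.2 and 10.7 in HFD (log2 change -1.56 ± 0.26, SE, adjusted p = 0.0239). Afmid, kynurenine formamidase in the same pathway, was at 167, 168 and 189 CPM in ND and 101, 121 and 84.8 in HFD (adjusted p = 0.0317). Of 24 genes of gluconeogenesis and insulin signalling, 0 rose and 1 fell in edgeR (unadjusted p under 0.05 in 3 higher and 2 lower genes, DESeq2 calls 1 and 1, limma calls on FPKM 1 and 0). Foxo1, a transcription factor that insulin holds out of the nucleus, was at 55.9, 51 and 52.9 CPM in ND and 36.6, 32 and 34.6 in HFD (log2 change -0.63 ± 0.10, SE, adjusted p = 0.0232, and 0.103 in the FPKM tables with limma). Pck1, a gluconeogenic enzyme, was at 3407, 3057 and 3635 CPM in ND and 2784, 889.9 and 1063 in HFD, where HFD 1 was near the ND libraries (adjusted p = 0.300). Among 11 urea cycle genes, edgeR called 0 (unadjusted p under 0.05 in 0 higher and 1 lower genes), DESeq2 0 higher and 0 lower, and limma on FPKM 0 and 0. Among amino acid catabolism genes, with 1 library left out, the number that fell was 0 without ND 1, ND 3 and HFD 3 and 1 without ND 2 and HFD 2. The call of Acmsd ended without ND 1, ND 3, HFD 2 or HFD 3 (5 of 9 kept, adjusted p up to 0.0957 without HFD 2). The call of Afmid ended without ND 1, ND 2, ND 3, HFD 1 or HFD 3 (4 of 9 kept, adjusted p up to 0.156 without ND 3). The call of Foxo1 ended without ND 1, ND 2, ND 3, HFD 2 or HFD 3 (4 of 9 kept, adjusted p up to 0.104 without ND 1).

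Of 36 complement and coagulation genes, 0 rose and 2 fell in edgeR (unadjusted p under 0.05 in 1 higher and 6 lower genes, DESeq2 calls 0 and 4, limma calls on FPKM 0 and 2). C8b, a subunit of the membrane attack complex, was at 394, 379.6 and 509 CPM in ND and 169, 161 and 193 in HFD (log2 change -1.30 ± 0.22, SE, adjusted p = 0.0236). C2, a protease of the classical pathway, was at 134, 129 and 135 CPM in ND and 79.5, 76.5 and 76.9 in HFD (log2 change -0.78 ± 0.14, SE, adjusted p = 0.0305). Neither gene overlapped between the groups, and C8a, the partner subunit of C8b, was at 936, 1074 and 1224 CPM in ND and 575, 661 and 746 in HFD (adjusted p = 0.184). Hamp2, a hepcidin gene, was the member that rose among 21 iron genes, at 6.35, 4.55 and 4.69 CPM in ND and 109, 49.95 and 38.4 in HFD (log2 change 3.66 ± 0.60, SE, adjusted p = 0.0329, and 0.0567 in the FPKM tables with limma). HFD 1 was the highest library. Among complement and coagulation genes, with 1 library left out, the number that fell was 0 without ND 1, ND 2, ND 3, HFD 2 and HFD 3. The calls of C8b and C2 ended without ND 1, ND 2, ND 3, HFD 2 or HFD 3 (4 of 9 kept, adjusted p up to 0.104 without ND 3 and 0.128 without ND 3). The call of Hamp2 ended without ND 1, ND 2, ND 3, HFD 2, HFD 3 or HFD_HDCA 2 (3 of 9 kept, adjusted p up to 0.180 without ND 3).

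Among 38 interferon-stimulated genes, edgeR called 0 (unadjusted p under 0.05 in 14 higher and 1 lower genes), DESeq2 3 higher and 0 lower, and limma on FPKM 0 and 0. The list lay higher in each HFD library, with medians of 0.42, 0.38 and 0.26 relative to the ND mean in HFD 1, HFD 2 and HFD 3, and 34 of 38 genes lay above 0. Ifit1 was at 6.04, 4.17 and 4.28 CPM in ND and 8.77, 13 and 6.82 in HFD (adjusted p = 0.121). Its groups did not overlap, which held for 17 of the 38 genes upward, against 10.9% of all genes tested.

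Markers of other liver cells varied mostly within the HFD group. In whole-liver RNA, fewer cells of a type and less RNA per cell cannot be told apart. Summed over 22 genes, macrophage and Kupffer markers stood at 1184 to 1222 CPM in ND and at 1129 CPM in HFD 1, 507 in HFD 2 and 1734 in HFD 3. A large part of this sum was C6, also on the complement list, at 298, 300 and 396 CPM in ND and 93.8, 190 and 214 in HFD. The median over the 21 genes tested, relative to the ND mean, was 0.07 in HFD 1, -1.40 in HFD 2 and 0.53 in HFD 3. Among the 21 macrophage genes tested, edgeR called 0 (unadjusted p under 0.05 in 1 higher and 2 lower genes), DESeq2 0 higher and 2 lower, and limma on FPKM 0 and 0. Of the 21 genes 11 lay above 0 and 10 below. Marco, a scavenger receptor, was at 15.5, 13.6 and 7.75 CPM in ND and 4.12, 2.68 and 228 in HFD, and Ccr2, a monocyte chemokine receptor, at 0.833, 0.976 and 1.45 CPM in ND and 1.52, 3.13 and 2.6 in HFD. Cd163, another scavenger receptor of resident macrophages, was at 29.6, 29.9 and 28.5 CPM in ND and 21.1, 4.8 and 6.15 in HFD (adjusted p = 0.276). Among 22 endothelial genes, edgeR called 0 (unadjusted p under 0.05 in 0 higher and 5 lower genes), DESeq2 0 higher and 0 lower, and limma on FPKM 0 and 0. Of the 22 endothelial genes 20 lay below 0 and 2 above, with a median of -0.35 on the log2 scale. The endothelial sum was 936 to 1055 CPM in ND and 866 in HFD 1, 524 in HFD 2 and 967 in HFD 3. Among 27 stellate and matrix genes, edgeR called 0 (unadjusted p under 0.05 in 0 higher and 0 lower genes), DESeq2 0 higher and 0 lower, and limma on FPKM 0 and 0. HFD 2 stood apart here, with Acta2, smooth muscle actin, at 38.4 CPM beside 0.983 to 4.94 in the other libraries and Col3a1, a collagen, at 91.1 beside 21.9 to 49.4. The adipose gene Cfd was at 11.4 CPM in HFD 2 and 0.174 to 4.01 in the others, and Adipoq at 1.46 in HFD 2 and at most 0.0542 in the others.

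Stap1 and Themis stood on the lymphocyte lists, and both rose. Themis, a regulator of T cell receptor signalling, was at 0.833, 0.325 and 0.231 CPM in ND and 3.9, 9.45 and 2.55 in HFD (log2 change 3.48 ± 0.63, SE, adjusted p = 0.0325). The CD3 chain genes Cd3d, Cd3e and Cd3g reached at most 0.752 CPM in any of the 6 libraries, and 19 of 25 T, NK and NKT markers stayed under 1 CPM in all 6. Zap70, a kinase of T and NK cells, was at 9.54 to 12.9 CPM in ND and 8.44 to 16.6 in HFD, and Zbtb16, an NKT factor, at 9.26 to 26.5 in ND and 2.22 to 7.29 in HFD. The T, NK and NKT sum was 28.9 to 51.4 CPM in ND and 25.6 to 39.3 in HFD. Of 13 B cell markers 6 stayed under 1 CPM in all 6 libraries, and Bank1, a B cell scaffold, reached 2.98 in ND and 3.33 in HFD. The B cell sum, with Stap1 included, was 8.73 to 12.1 CPM in ND and 13.4, 11.2 and 20.8 in HFD 1 to HFD 3. Stap1 itself made up 2, 5.71 and 6.46 CPM of these HFD sums and at most 0.231 CPM of the ND sums. The part of these cells in the rises of Stap1 and Themis was not tested. The call of Themis ended without ND 1, ND 2, ND 3, HFD 2 or HFD_HDCA 2 (4 of 9 kept, adjusted p up to 0.175 without ND 2). Themis also lost its call in the fit to the 6 ND and HFD libraries alone (adjusted p = 0.0734).

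Wee1, a cell cycle kinase that is also a clock output gene, was the member that rose among 21 clock genes, at 2.24, 1.63 and 1.74 CPM in ND and 9.64, 5.1 and 4.12 in HFD (log2 change 1.74 ± 0.32, SE, adjusted p = 0.0306). HFD 1, the library with the shifted Dbp and Arntl, was its highest library, and HFD 2 and HFD 3 were also above ND. Bhlhe40, another clock regulator, was at 72.1, 54.8 and 42.7 CPM in ND and 234, 101 and 118 in HFD (adjusted p = 0.158). The part of sampling time in these results was not tested. The call of Wee1 ended without ND 1, ND 2, ND 3, HFD 2 or HFD_HDCA 2 (4 of 9 kept, adjusted p up to 0.152 without ND 3). Wee1 also lost its call in the fit to the 6 ND and HFD libraries alone (adjusted p = 0.0696).

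**Figure D5:**
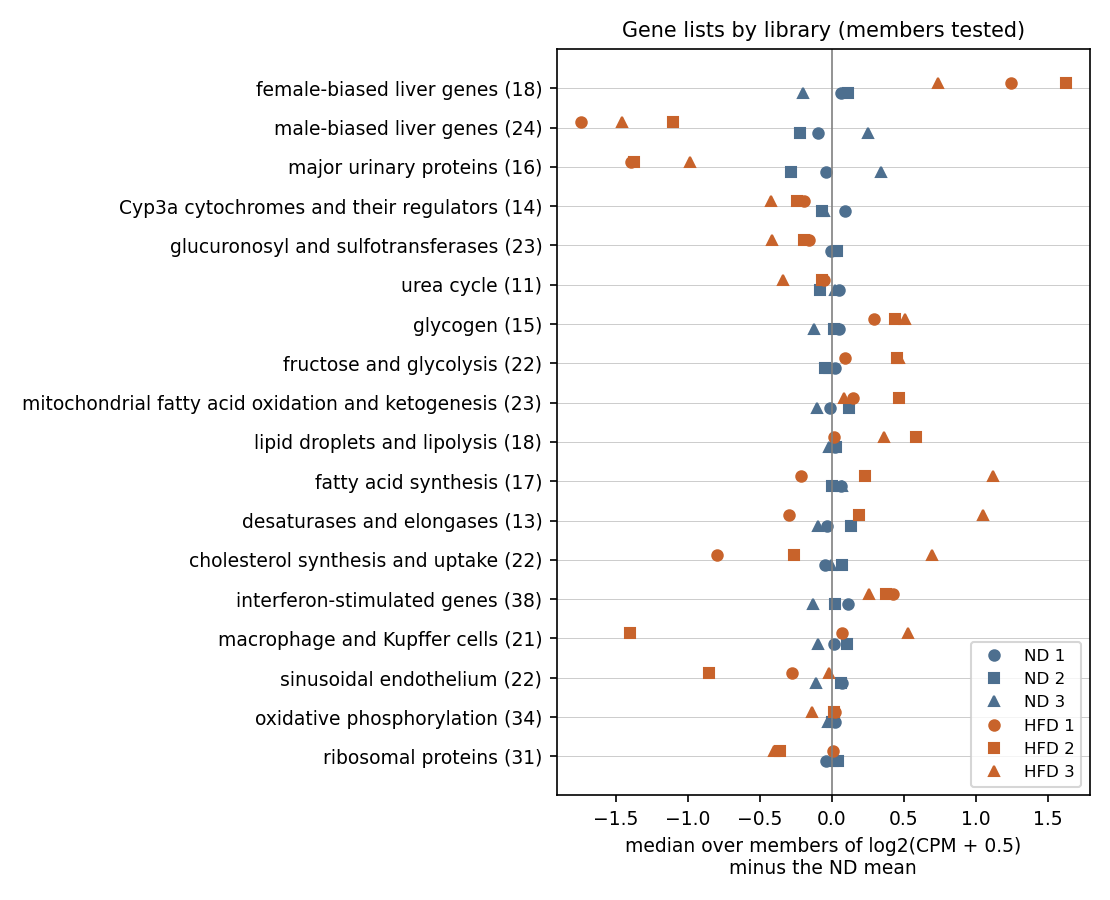
Rows are gene lists with the number of members tested, and the x axis is the median over members of log2(CPM + 0.5) minus the ND mean, for each ND (blue) and HFD (orange) library. Male-biased genes, urinary proteins, glycogen and interferon genes lie to 1 side in all 3 HFD libraries, while lipid synthesis and macrophage lists spread between HFD 1, HFD 2 and HFD 3. The endothelial list lies at -0.28, -0.85 and -0.02 in these libraries, the last within the ND range.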

How the data were processed

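Liver RNA was sequenced from 9 samples, 3 per group, prepared with a lipid tissue RNA kit and TruSeq libraries per the labels' protocols. The deposited counts are whole reads per gene from HTSeq. Per the submitters' processing notes, Cufflinks 2.0.2 and TopHat 1.3.2 were used on mm10, with no step named. The counting annotation and strand setting are not given in the sources used here, so overlapping and antisense genes are uncertain. The deposited FPKM values are fragment counts scaled by transcript length and library size.

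The 5 read-class lines were left out of the 23337 genes. Counts were tested with edgeR 4.0.16 (quasi-likelihood F test, TMM scaling, filterByExpr with a minimum count of 10) in 1 fit over all 9 libraries, with Benjamini-Hochberg adjustment over 12587 genes and a threshold of 0.05. CPM used TMM-scaled library sizes. Alternatives used DESeq2 1.42.0, limma 3.58.1 on log2(FPKM + 0.1), other filters and scalings, a replicate block, and each library left out. The script was tested on simulated data. With 3 libraries a group, the smallest p of an exact permutation test is 0.1, so none was used.

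Named genes were those called with the smallest p, the abundant called genes, those with folds under 2, and members of gene lists. The comparison, the lists and the motifs were chosen with earlier results of these data known. Libraries were compared by group labels, and replicate libraries differed by more than counting noise. The chi-square per degree of freedom was 11.1 to 21.6 between ND libraries and 32.5 to 60.9 between HFD libraries. Some listed genes are counted in their lists but are not reported here by name.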

Additional observations from a re-analysis of the deposited data

How the results depend on the processing

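The 120 called genes (60 higher, 60 lower) became 362 with DESeq2 and 576 without HFD 1 and HFD_HDCA 1, and leaving out 1 library gave 32 to 226. Other settings gave 125 with median-of-ratios scaling, 119 with upper-quartile scaling, 117 without a filter and 153 with the 6 libraries alone (93 of the 120 kept). The FPKM tables with limma gave 146 (91 higher, 55 lower), where the median of all genes was 0.11 on the log2 scale. With the replicate number as a block the count was 82, and in the 6 libraries with the block, added after seeing the data, 112. Same-numbered ND and HFD samples deviated together with r of 0.0983, -0.114 and 0.0199. Over all same-numbered pairs, those with HFD_HDCA included, r ran from -0.149 to 0.153 (the latter for ND 1 and HFD_HDCA 1). The labels do not say what the numbers mark, and values over all genes cannot show whether such samples shared a cage or day. Of the 120 genes, 96 were also called from FPKM and 69 with the block, and in every setting run 0 changed sign. Depth limits genes with few reads, such as Cyp2b13 and Hao2 in ND, whose ratios have wide counting intervals.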

Other observations

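Housekeeping and growth lists moved little or unevenly. All 31 ribosomal protein genes tested lay below 0, with a median of -0.24, but relative to the ND mean the list stood at 0.01 in HFD 1, -0.36 in HFD 2 and -0.40 in HFD 3. Among them, edgeR called 0 (unadjusted p under 0.05 in 0 higher and 4 lower genes), DESeq2 0 higher and 1 lower, and limma on FPKM 0 and 0. Among 29 cell cycle genes, edgeR called 0 (unadjusted p under 0.05 in 6 higher and 0 lower genes), DESeq2 0 higher and 0 lower, and limma on FPKM 0 and 0. Of the cell cycle genes 26 lay above 0, with list medians of 0.01, 0.38 and 0.61 in HFD 1, HFD 2 and HFD 3. Among 34 oxidative phosphorylation genes, edgeR called 0 (unadjusted p under 0.05 in 0 higher and 0 lower genes), DESeq2 0 higher and 0 lower, and limma on FPKM 0 and 0. Among 23 ER stress genes, edgeR called 0 (unadjusted p under 0.05 in 1 higher and 1 lower genes), DESeq2 1 higher and 0 lower, and limma on FPKM 0 and 0.

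Several genes outside every list, chosen here after their values were seen, also changed. Enpp1, an ectonucleotide pyrophosphatase, was at 17.2, 20.1 and 15.9 CPM in ND and 28.8, 27.2 and 25.8 in HFD (log2 change 0.62 ± 0.11, SE, edgeR adjusted p = 0.0317). Rxrg, a retinoid X receptor, was at 3.85, 4.07 and 3.12 CPM in ND and 6.17, 9.34 and 7.97 in HFD (edgeR adjusted p = 0.0322). Gpc1, a heparan sulfate proteoglycan, was at 10.8, 4.88 and 6.19 CPM in ND and 39.3, 47.2 and 34.6 in HFD (edgeR adjusted p = 0.0232). The groups did not overlap for these 3 genes, as for all 120 called genes. The call of Gpc1 ended without ND 2, ND 3, HFD 2 or HFD 3 (5 of 9 kept, adjusted p up to 0.126 without ND 3). The call of Rxrg ended without ND 1, ND 2, ND 3, HFD 2, HFD 3 or HFD_HDCA 2 (3 of 9 kept, adjusted p up to 0.162 without ND 3). The call of Enpp1 ended without ND 1, ND 3, HFD 1, HFD 2, HFD 3, HFD_HDCA 2 or HFD_HDCA 3 (2 of 9 kept, adjusted p up to 0.161 without ND 3). Rxrg also lost its call in the fit to the 6 ND and HFD libraries alone (adjusted p = 0.0583).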
